A study of Homo sapiens with 6 samples.

Results

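The genes described here are 10 genes of the contractile actin cytoskeleton of smooth muscle cells and myofibroblasts, namely ACTA2, TAGLN, CNN1, TPM1, TPM2, MYL9, ACTN1, CALD1, LMOD1 and MYLK. They were chosen by name, and for each the row on a primary chromosome was taken. All 10 were found among the 41497 named entries, each name with 1 entry. RNA was sequenced from HK-2 cells, a human cell line derived from the proximal tubule and immortalised, labelled as wild type. There were 3 libraries of control cells and 3 of cells treated with the profibrotic cytokine TGF-β1, all collected at 24 hours. All libraries come from this 1 line, and the labels do not say whether the replicates were separate cultures, so the p values measure the spread between these libraries, which may be technical. Per the labels the growth medium contained fetal bovine serum. In the methods, TGF-β was given in medium without serum, and the medium of the control cells at that step is not specified. The question put to these genes was how far the RNA of tubular cells moves toward that of a contractile cell after TGF-β1.

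In smooth muscle and in myofibroblasts, force comes from myosin pulling on actin filaments. Myosin becomes active when myosin light chain kinase, encoded by MYLK, phosphorylates the regulatory light chain, of which MYL9 is the smooth muscle form. Tropomyosin, caldesmon and calponin lie along the actin filament and control its access to myosin, and α-actinin crosslinks the filaments. Many genes of this apparatus are known targets of serum response factor (SRF), which binds the CArG box and works with the cofactors MRTFA, MRTFB and, in muscle, MYOCD. α-Smooth muscle actin, encoded by ACTA2, is the usual marker of the myofibroblast in kidney fibrosis.

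Total counts were 22.0, 23.7 and 22.5 megacounts (M) in the control libraries and 26.9, 25.3 and 21.9 M in the TGF-β1 libraries. Libraries of a group had a Pearson correlation across genes of log2 CPM (counts per 1 M counts, scaled between libraries) of 0.989 to 0.992. TGF-β1 replicate 1 stood apart in its counts, with a chi-square per degree of freedom of 16.7 and 15.5 against the other TGF-β1 libraries, where all other pairs within a group lay between 4.04 and 5.48. The label of the cells was compared with their markers. The epithelial genes KRT8, KRT18, PAX8 and CDH6 were expressed in both groups, at mean levels of 151 to 764 CPM. Genes of the mature proximal tubule were in part at or near 0 reads in all 6 libraries together, with 0 for LRP2 and SLC22A6, 1 for HNF4A and VIL1, and 6 for ANPEP. Others were detected, with 5343 reads in control and 3622 after TGF-β1 for GGT1, 28 and 123 for AQP1 and 34 and 61 for CUBN.

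The sequences before some transcription starts show where the known SRF element lies in examples of genes that turned out silent, lower or higher. They are the 250 bases before a start in RefSeq (GRCh38.p14), read 5′ to 3′ on the strand of the gene. Capitals mark a CArG box, a CArG box with 1 changed base in its A/T core, or an MCAT element (CATTCC or its reverse complement GGAATG). The RefSeq table held 16 start windows, each of 250 bases before and 50 bases after a start, for 8 of the 10 genes. TAGLN and MYL9 had none. The ACTA2 sequence is the second of its starts, 38624 bases inside the listed gene (chr10:88952774-88953023, minus strand). The MYLK sequence lies before an internal start 263784 bases downstream of the listed gene start (chr3:123620549-123620798, minus strand). This is near the 3′ end of a gene that spans 274284 bases, and MYLK had no window at its listed start. The ACTN1 sequence belongs to the third of its 4 starts, 1736 bases inside the gene (chr14:68977567-68977816, minus strand). For comparison, ACTG1 (chr17:81512800-81513049, minus strand) encodes the γ-actin of all cells and ACTG2 (chr2:73892758-73893007, plus strand) the γ-actin of visceral smooth muscle.
ACTA2 start 2: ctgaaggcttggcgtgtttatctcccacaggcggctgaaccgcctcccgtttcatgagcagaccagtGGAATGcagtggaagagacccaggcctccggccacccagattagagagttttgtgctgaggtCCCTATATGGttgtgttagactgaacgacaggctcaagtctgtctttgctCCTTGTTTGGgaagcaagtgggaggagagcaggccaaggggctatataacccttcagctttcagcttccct
MYLK internal start: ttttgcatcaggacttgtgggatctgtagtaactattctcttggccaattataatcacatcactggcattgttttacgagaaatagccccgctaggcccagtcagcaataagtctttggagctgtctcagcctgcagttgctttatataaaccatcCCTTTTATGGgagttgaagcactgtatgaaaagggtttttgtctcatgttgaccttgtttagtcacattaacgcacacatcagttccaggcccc
ACTN1 start 3: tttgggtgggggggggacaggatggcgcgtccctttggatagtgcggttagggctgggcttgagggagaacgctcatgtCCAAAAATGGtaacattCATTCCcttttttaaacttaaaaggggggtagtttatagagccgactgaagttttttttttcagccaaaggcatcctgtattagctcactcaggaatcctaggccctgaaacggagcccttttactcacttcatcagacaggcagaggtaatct
ACTG1: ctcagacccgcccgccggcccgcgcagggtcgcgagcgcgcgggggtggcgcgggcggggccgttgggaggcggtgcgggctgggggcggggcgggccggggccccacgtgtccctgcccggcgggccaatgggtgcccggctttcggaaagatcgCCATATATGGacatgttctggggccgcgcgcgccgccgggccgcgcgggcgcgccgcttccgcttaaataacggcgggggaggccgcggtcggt
ACTG2: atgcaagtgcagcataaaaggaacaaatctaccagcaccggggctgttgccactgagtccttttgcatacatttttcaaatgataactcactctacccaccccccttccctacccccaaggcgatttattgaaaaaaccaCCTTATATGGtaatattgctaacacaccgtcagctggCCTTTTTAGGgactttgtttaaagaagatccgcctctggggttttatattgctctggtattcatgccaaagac

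The ACTA2 window had no unchanged CArG box and 2 matches with 1 changed core base, CCCTATATGG from 121 bases and CCTTGTTTGG from 71 bases before the start. The MYLK window had the unchanged box CCTTTTATGG from 94 bases before the internal start, which is not the listed start of the gene. The ACTN1 window had CCAAAAATGG from 171 bases before its start. Among the other actins, ACTG1 had CCATATATGG from 94 bases before the start, and ACTG2 had CCTTATATGG and CCTTTTTAGG from 110 and 73 bases. ACTA1 had CCAAATATGG from 97 bases and ACTC1 had CCAAATAAGG from 109 bases. Unchanged boxes were thus present in windows of abundant genes and of ACTA1, ACTC1 and ACTG2, which were near the limit of detection. No window of CNN1, TPM1 or CALD1, which rose, held an unchanged box. Nor did those of TPM2 and LMOD1, which were near the limit of detection. Of the 16 windows of the contractile genes, 2 held a CArG box and 2 the changed form, where 1.29% and 6.94% of all 35116 RefSeq windows of this length did. MCAT was in 6 of the 16 windows and in 14.0% of all windows. The short SMAD element CAGAC, searched on both strands, was in 11 of the 16 and in 45.3% of all windows. The windows of a gene can overlap, and a match of letters does not show a bound site.

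The contractile genes did not move as a block. Of the 10, 7 had enough counts to be tested, and of these 6 rose after TGF-β1 and 1, MYLK, fell. ACTA2, TPM2 and LMOD1 were at or near 0 in every library. Groups were compared with the two-sided edgeR quasi-likelihood F test, with Benjamini-Hochberg adjustment over all 14860 entries tested and a call at an adjusted p under 0.05. The background was high, since 22.2% of all entries tested were called higher and 22.1% lower. When the test was made against a 2-fold change itself, TAGLN was the only 1 of the 7 called higher and MYLK the only 1 called lower, where 2.15% and 2.27% of all entries were. The CPM of the groups did not overlap for any of the 7, which was so for 55.6% of all entries tested. The median log2 fold change was 0.61 for the 7 tested genes and 0.01 for all entries tested. The 7 had passed a filter on low counts, so neither value describes all 10 genes. With scaling by total counts only, the median of all entries shifted by -0.11 on the log2 scale and the calls of the whole table became 2134 higher and 4590 lower, in place of 3294 and 3288, while the 7 contractile genes kept their calls. Without TGF-β1 replicate 1, the library that stood apart, the 7 kept their calls as well, with log2 fold changes of 2.63 for TAGLN, 0.49 for CNN1, 0.61 for TPM1, 0.66 for MYL9, 0.25 for ACTN1, 0.49 for CALD1 and -1.35 for MYLK.

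**Figure D1:**
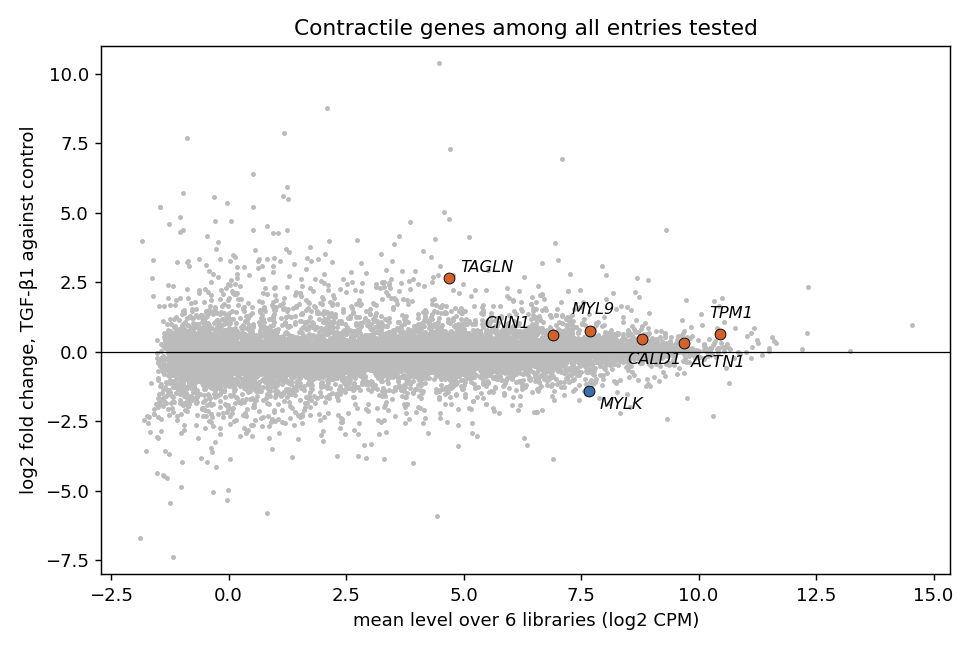
Each grey point is 1 of the 14860 entries tested, with its mean level over the 6 libraries (log2 CPM, horizontal axis) and its log2 fold change after TGF-β1 (vertical axis). The 7 tested contractile genes are marked in orange (called higher) or blue (called lower), and TAGLN at 2.66 and MYLK at -1.42 lie outside the range of 0.30 to 0.76 that holds the other 5.

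α-Smooth muscle actin RNA was at the limit of detection with and without TGF-β1. The paper also quantified the protein by Western blot, in stably transfected HK-2 cells given TGF-β. The RNA values here do not give the level of that protein. ACTA2 (gene-ACTA2, GRCh38 chromosome 10, 88935074 to 88991397) had 1, 6 and 5 reads in the control libraries and 5, 2 and 3 reads in the TGF-β1 libraries. The groups overlapped fully. Summed, this was 12 of 67.9 M control counts and 10 of 73.8 M counts after TGF-β1. The ratio of the read rates, TGF-β1 over control, was 0.766, with a 95% exact conditional interval from 0.297 to 1.94. The upper limit was 3.35 without control replicate 2, so neither a fall nor a rise of 2-fold can be set aside at this depth. The exact permutation p of the CPM over libraries was 0.7. This interval, like the others of read ratios here, covers counting error only. Of the 1808 exon bases of ACTA2, 39.7% overlap exons of ACTA2-AS1 and FAS on the opposite strand, and whether counting used the strand is not stated.

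The actin RNA of these cells was that of the cytoplasmic isoforms. ACTB, which encodes β-actin, rose from 3949 ± 381 to 6243 ± 497 CPM (SD, n = 3), with a log2 fold change of 0.66 ± 0.08 (SE) at an edgeR adjusted p of 9.1e-05. ACTG1 rose from 2870 ± 157 to 3581 ± 142 CPM, for a log2 fold change of 0.32 ± 0.06 with an edgeR adjusted p of 0.0018. The muscle actins were near 0, with 3 reads in control and 2 after TGF-β1 for ACTA1 of skeletal muscle, 0 and 6 for ACTC1 of the heart, and 1 and 0 for ACTG2. In TPM, which also divides by gene length and so compares levels between genes, ACTA2 held 0.00263% of all actin RNA in control and 0.00147% after TGF-β1 (exact permutation p = 0.4). Within the family, the share of ACTB went from 60.7% ± 1.57 to 66.2% ± 0.866 (SD, n = 3) and did not overlap between groups. For shares of 3 libraries against 3, the smallest p of the exact permutation test is 0.1, which was the value for ACTB.

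TAGLN showed the largest rise of the 7. It encodes transgelin, or SM22α, an actin-binding protein that is an early marker of smooth muscle differentiation (gene-TAGLN, chromosome 11, 117199294 to 117207465, plus strand). Its level was 6.82, 7.11 and 7.29 CPM in the control libraries and 45.8, 43.5 and 45.0 CPM in the TGF-β1 libraries. Every TGF-β1 library was far above every control library, and the libraries of a group were close to each other. The mean rose from 7.07 ± 0.234 to 44.8 ± 1.18 CPM (SD, n = 3), which was 6.32-fold, with a log2 fold change of 2.66 ± 0.07 (SE) at an edgeR adjusted p of 6e-10. In reads this was 499 in control and 3186 after TGF-β1. Of the 4260 exon bases of TAGLN, 52.4% overlap exons of PCSK7 on the opposite strand. The entry of PCSK7 had 444 to 484 reads in control, more than the 154 to 174 of TAGLN. After TGF-β1 it had 435 to 501, fewer than TAGLN in any of these libraries. Whether counting used the strand is not stated, and the part of this overlap in the reads of TAGLN was not tested.

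Even so, TAGLN remained a minor transgelin. TAGLN2, the form of many non-muscle cells, rose from 706 ± 27.6 to 1030 ± 97.0 CPM (SD, n = 3), for a log2 fold change of 0.54 ± 0.07 (SE) with an edgeR adjusted p of 1.2e-04. TAGLN3, the neuronal form, fell by 0.49 on the log2 scale (edgeR adjusted p = 0.018), and this call was lost without control replicate 1 or without TGF-β1 replicate 3. By TPM, TAGLN held 0.385%, 0.407% and 0.443% of the transgelin RNA in control and 1.64%, 1.79% and 1.91% after TGF-β1 (exact permutation p = 0.1, the smallest possible). The share of TAGLN2 was 98.5% in control and 97.7% after TGF-β1. In raw counts the share of TAGLN moved by 3.18 percentage points in place of 1.37.

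The tropomyosins differed sharply from each other in level. TPM1 (gene-TPM1, chromosome 15, 63042698 to 63071915, plus strand), whose isoforms are made by both muscle and non-muscle cells, was measured at 1109, 1089 and 1114 CPM in control and 1758, 1653 and 1734 CPM after TGF-β1. The groups were well apart. The mean rose from 1104 ± 12.9 to 1715 ± 55.1 CPM (SD, n = 3), for a log2 fold change of 0.64 ± 0.05 (SE) with an edgeR adjusted p of 3.6e-06. A gene-level count does not separate the muscle and non-muscle isoforms of TPM1, so which of them rose cannot be read from these values. TPM2 (gene-TPM2, chromosome 9, 35681993 to 35690056, minus strand), the β-tropomyosin of muscle and fibroblasts, had 2, 4 and 1 reads in the control libraries and 1, 2 and 3 in the TGF-β1 libraries. The ratio of its read rates was 0.788 (95% exact interval 0.219 to 2.74, exact permutation p = 0.7), so a change of 2-fold in either direction was not detectable at this depth.

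The non-muscle tropomyosins also rose, by less. The log2 fold change was 0.38 ± 0.05 (SE) for TPM4 (edgeR adjusted p = 2.2e-04) and 0.27 ± 0.05 for TPM3 (edgeR adjusted p = 0.0014). By TPM, the share of TPM1 in the family was 42.5% ± 0.107 in control and 47.3% ± 0.831 after TGF-β1 (SD, n = 3), while that of TPM4 went from 45.5% to 42.3% and that of TPM3 from 11.9% to 10.3%. TPM4 was the leading tropomyosin in each control library and TPM1 in each TGF-β1 library, with a TPM1 to TPM4 ratio of 0.934 ± 0.00577 in control and 1.12 ± 0.0399 after TGF-β1 (SD, n = 3, exact permutation p = 0.1). TPM2 stayed at or under 0.0206% of the family in every library.

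CNN1 encodes calponin 1, a late marker of smooth muscle differentiation that binds actin and damps the myosin ATPase (gene-CNN1, chromosome 19, 11538775 to 11550323, plus strand). It was already well expressed in the control libraries, at 97.0, 98.1 and 89.8 CPM, and was measured at 167, 137 and 131 CPM after TGF-β1. All TGF-β1 libraries were above the control libraries, and TGF-β1 replicate 1 was the highest. The mean rose from 95.0 ± 4.52 to 145 ± 18.8 CPM (SD, n = 3), for a log2 fold change of 0.61 ± 0.09 (SE) with an edgeR adjusted p of 2.6e-04. The calponin CNN3, found in many non-muscle cells, rose by 0.53 ± 0.06 on the log2 scale (edgeR adjusted p = 5.1e-05). CNN2 had a log2 fold change of 0.25 ± 0.07 (edgeR adjusted p = 0.018), and its call was lost without control replicate 2, without control replicate 3 and with total counts only. CNN1 made up 14.4% ± 0.332 of calponin RNA by TPM in control and 16.5% ± 0.755 after TGF-β1 (SD, n = 3), a shift of 2.10 percentage points that was 1.26 in raw counts. Its ratio to CNN2 did not overlap between groups, at 0.286 to 0.305 and 0.371 to 0.394. Its ratio to CNN3 overlapped, at 0.372 to 0.408 and 0.377 to 0.442 (exact permutation p = 0.4).

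CALD1 encodes caldesmon, which holds back the actin-activated myosin ATPase (gene-CALD1, chromosome 7, 134779629 to 134970729, plus strand). It was measured at 364, 376 and 377 CPM in control and at 491, 519 and 536 CPM after TGF-β1. The libraries of a group lay close together and the groups did not overlap. The mean rose from 372 ± 7.53 to 515 ± 22.9 CPM (SD, n = 3), for a log2 fold change of 0.47 ± 0.05 (SE) with an edgeR adjusted p of 4.4e-05. The high molecular weight form of smooth muscle and the low molecular weight form of other cells come from this 1 gene and are counted together here.

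LMOD1 encodes leiomodin 1, a smooth muscle protein that nucleates actin filaments and is another known SRF target (gene-LMOD1, chromosome 1, 201896456 to 201946548, minus strand). The control libraries held 4, 7 and 7 reads of it and the TGF-β1 libraries 4, 1 and 5, with overlap between groups. The ratio of its read rates was 0.511 (95% exact interval 0.211 to 1.17, exact permutation p = 0.2). The other leiomodins were also near 0, with 0 reads for LMOD2 and 18 for LMOD3 in all libraries together. The related tropomodulins, which cap the slow-growing end of actin filaments, were present. TMOD3, the widely expressed form, had a log2 fold change of 0.11 ± 0.06 (edgeR adjusted p = 0.16). TMOD1 fell by 0.86 on the log2 scale (edgeR adjusted p = 1.8e-04) and TMOD2 by 0.54 (edgeR adjusted p = 0.0041). Of the exon bases of TMOD1, 49.0% overlap exons of TSTD2 on the opposite strand. TMOD4, the skeletal muscle form, went from 40 to 30 reads and did not pass the test (edgeR adjusted p = 0.42).

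**Figure D2:**
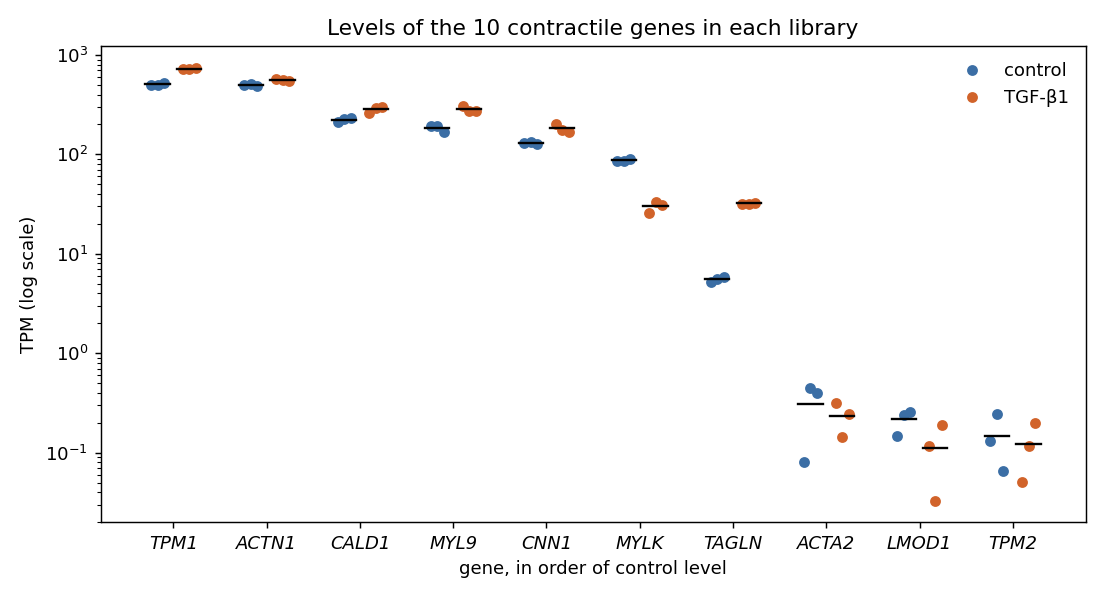
Levels of the 10 contractile genes in TPM (log scale) in each of the 6 libraries, in order of their control mean, with control in blue, TGF-β1 in orange and black bars at the means of 3 libraries. TPM1, ACTN1, CALD1, MYL9 and CNN1 lie above 100 TPM in all libraries, and ACTA2, LMOD1 and TPM2 lie below 1 TPM in all libraries. MYLK and TAGLN move in opposite directions to about the same level in TPM, though not in CPM.

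The myosin light chain MYL9 and the kinase MYLK moved in opposite directions. MYL9, the regulatory light chain on which contraction is switched (gene-MYL9, chromosome 20, 36541519 to 36551447, plus strand), was measured at 163, 161 and 137 CPM in control and 290, 242 and 248 CPM after TGF-β1. Again TGF-β1 replicate 1 was the highest library, and no TGF-β1 library was as low as a control library. The mean rose from 154 ± 14.7 to 260 ± 26.2 CPM (SD, n = 3), for a log2 fold change of 0.76 ± 0.09 (SE) with an edgeR adjusted p of 7e-05. Its non-muscle relatives rose by less, MYL12B by 0.36 ± 0.05 on the log2 scale (edgeR adjusted p = 2e-04) and MYL12A by 0.24 ± 0.07 (edgeR adjusted p = 0.015). The call of MYL12A was lost without control replicate 2, without control replicate 3 and with total counts only. By TPM, MYL9 made up 16.9% ± 1.17 of these 3 light chains in control and 21.9% ± 0.554 after TGF-β1 (SD, n = 3), MYL12A went from 43.6% to 39.3%, and MYL12B was at 39.5% and 38.7% with overlap between groups (exact permutation p = 0.6).

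MYLK, the kinase that phosphorylates this light chain, was the 1 contractile gene that fell (gene-MYLK, chromosome 3, 123610049 to 123884332, minus strand). It was measured at 296, 293 and 298 CPM in control and at 97.3, 120 and 114 CPM after TGF-β1. The 3 control libraries were nearly equal, and each TGF-β1 library was below 121 CPM. The mean fell from 296 ± 2.83 to 110 ± 11.7 CPM (SD, n = 3), for a log2 fold change of -1.42 ± 0.07 (SE), or 2.68-fold lower, with an edgeR adjusted p of 7.2e-08. In reads this was 20834 in control and 7816 after TGF-β1. Only 2.60% of its 11291 exon bases overlap other entries. The gene also makes a short product, telokin, from an internal start near its 3′ end, and the count does not separate it from the kinase. The MYLK sequence shown above likewise lies before an internal start near the 3′ end, not before the listed gene start. As a ratio of TPM, MYL9 over MYLK was 2.23, 2.24 and 1.86 in the control libraries but 12.1, 8.20 and 8.81 in the TGF-β1 libraries (exact permutation p = 0.1, the smallest possible).

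Among the other kinases of the family, MYLK2 went the opposite way to MYLK. MYLK2, the skeletal muscle myosin light chain kinase (gene-MYLK2, chromosome 20, 31819356 to 31834684, plus strand), rose from 45 to 302 reads. Its level rose from 0.634 ± 0.166 to 4.22 ± 0.405 CPM (SD, n = 3), for a log2 fold change of 2.72 ± 0.22 (SE) with an edgeR adjusted p of 2.3e-06. By TPM it made up 0.855% ± 0.223 of the RNA of the family in control and 13.5% ± 2.42 after TGF-β1, while MYLK went from 98.8% ± 0.238 to 86.2% ± 2.45 (SD, n = 3). MYLK thus remained the main kinase RNA of the family. These shares rest on the division by gene length, since as a share of raw counts MYLK moved by -3.58 percentage points in place of -12.6. MYLK3 of the heart had 18 and 11 reads. MYLK4 had 36 and 15 reads, with a log2 fold change of -1.24 ± 0.45 at an edgeR adjusted p of 0.046, and its call held in 8 of 16 alternative analyses.

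**Figure D3:**
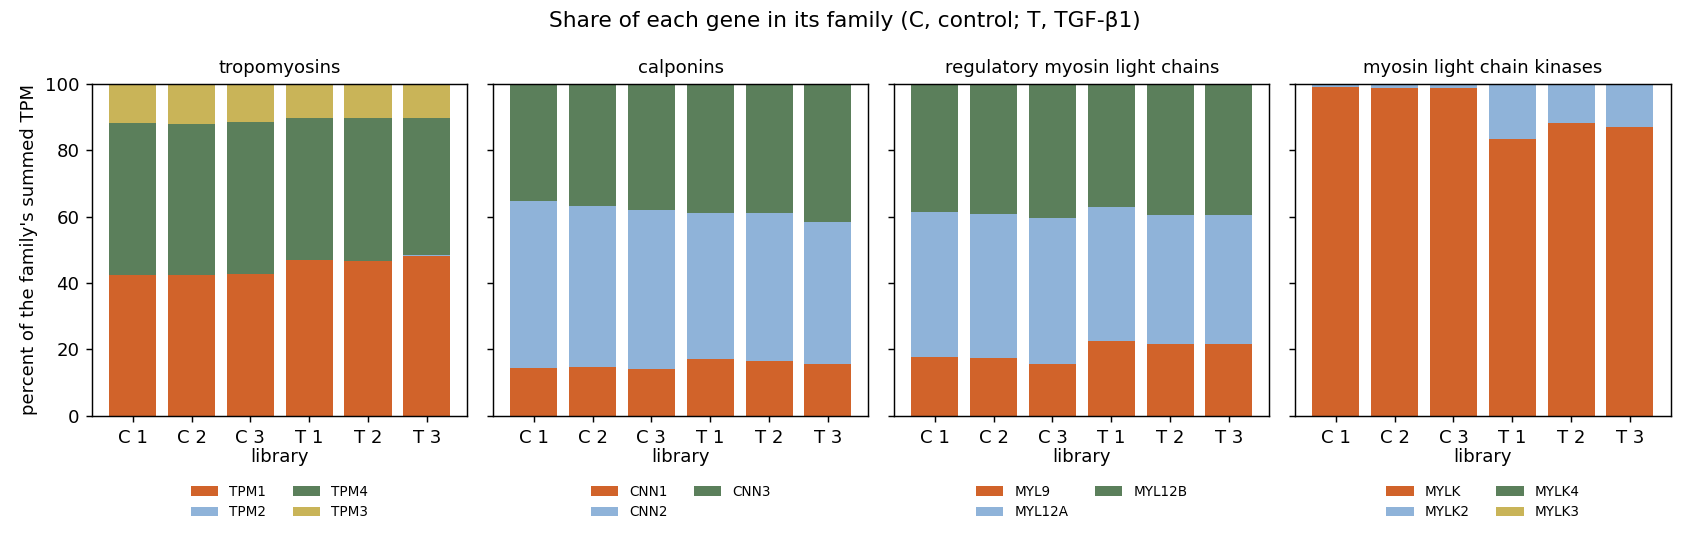
Share of each gene in the summed TPM of its family (percent, vertical axis) in each of the 6 libraries, with C for control and T for TGF-β1, for the tropomyosins, calponins, regulatory myosin light chains and myosin light chain kinases. The orange segment is the contractile gene of interest, and its mean share went from 42.5% to 47.3% for TPM1, from 14.4% to 16.5% for CNN1, from 16.9% to 21.9% for MYL9 and from 98.8% to 86.2% for MYLK, whose shift is -3.58 percentage points in raw counts.

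ACTN1 encodes α-actinin 1, which crosslinks actin filaments in stress fibres and at focal adhesions (gene-ACTN1, chromosome 14, 68874123 to 68979302, minus strand). It showed the smallest change among the tested contractile genes. It was measured at 758, 755 and 708 CPM in control and at 965, 889 and 882 CPM after TGF-β1. The mean rose from 740 ± 28.1 to 912 ± 45.7 CPM (SD, n = 3), for a log2 fold change of 0.30 ± 0.06 (SE) with an edgeR adjusted p of 0.0017. ACTN2 of striated muscle had a log2 fold change of -0.29 ± 0.15 (edgeR adjusted p = 0.13), and ACTN3 had 4 and 5 reads. ACTN4, the other non-muscle form, has 2 entries under its name, 1 of them off the primary chromosomes. Its primary entry went from 16 to 31 reads, so its value is uncertain and no share of the α-actinins is given.

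**Figure D4:**
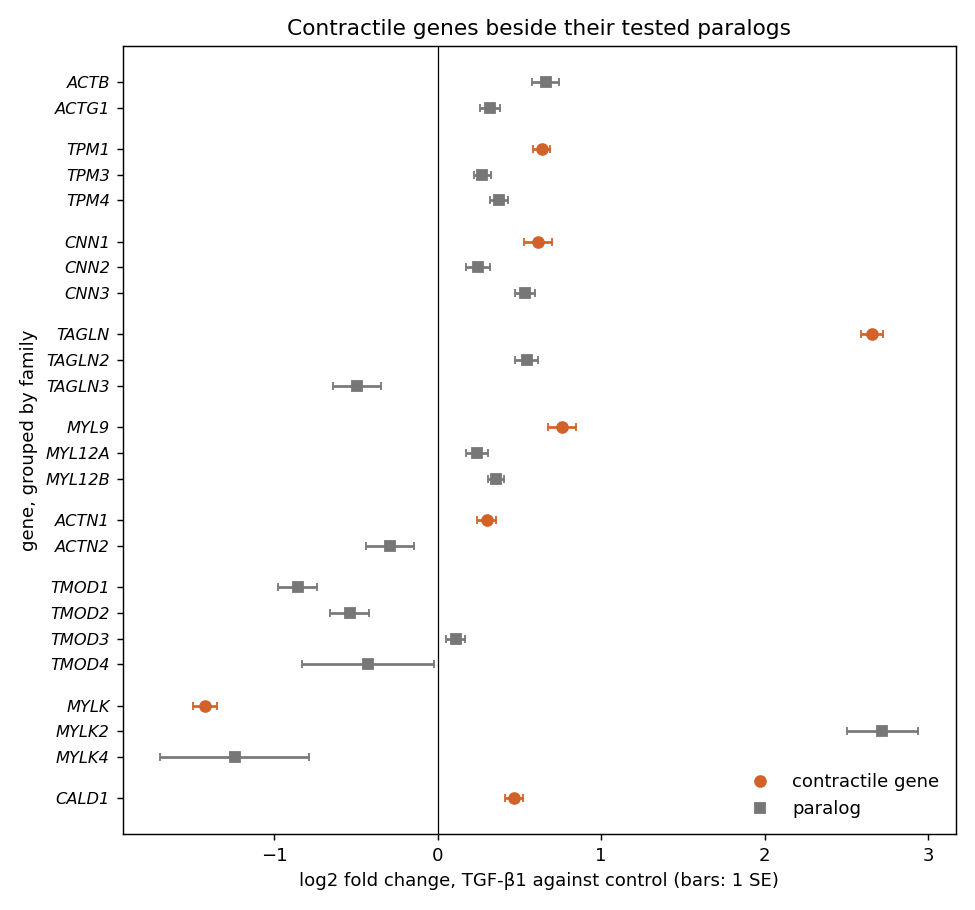
Log2 fold change after TGF-β1 (horizontal axis, bars of 1 SE) of the 7 tested contractile genes (orange circles) beside their tested paralogs (grey squares), grouped by family. TAGLN at 2.66 and MYLK2 at 2.72 lie farthest to the right and MYLK at -1.42 farthest to the left, while TPM1, CNN1, MYL9, CALD1 and ACTN1 lie between 0.30 and 0.76.

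Of the 25 paralogs of the contractile genes, 17 were tested. After TGF-β1, 10 rose, 4 fell and 3 did not pass the test, and their median log2 fold change was 0.25. The 8 that were not tested are ACTA1, ACTC1, ACTG2, ACTN3, ACTN4, LMOD2, LMOD3 and MYLK3. The count of 4 that fell was 2 without control replicate 1. Of all entries tested, 22.2% were called higher and 22.1% lower, and these shares stand beside the gene lists below as well.

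In order of their TPM, the 10 genes spanned from over 500 TPM to below 1 TPM in control. TPM1 at 511 ± 12.5 TPM and ACTN1 at 498 ± 11.1 TPM (SD, n = 3) came first, and their libraries overlapped. CALD1 at 223 ± 8.24 TPM, MYL9 at 183 ± 14.7 TPM, CNN1 at 131 ± 4.42 TPM and MYLK at 87.1 ± 2.16 TPM followed with no overlap between neighbours. TAGLN was at 5.53 ± 0.282 TPM. ACTA2, LMOD1 and TPM2 came last, at 0.310 ± 0.201, 0.216 ± 0.0595 and 0.146 ± 0.0904 TPM, and did not differ from each other beyond their spread.

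After TGF-β1 the order was similar at both ends. TPM1 led at 731 ± 14.0 TPM, now clear of ACTN1 at 565 ± 13.4 TPM (SD, n = 3). MYL9 at 286 ± 20.4 TPM and CALD1 at 285 ± 19.6 TPM overlapped, followed by CNN1 at 183 ± 18.8 TPM. TAGLN at 32.2 ± 0.459 TPM and MYLK at 30.02 ± 3.98 TPM overlapped in place of being far apart. This rests on the division by gene length, since in CPM they were at 44.8 and 110. ACTA2, TPM2 and LMOD1 again shared the bottom, at 0.235 ± 0.0865, 0.122 ± 0.0740 and 0.112 ± 0.0777 TPM. The summed TPM of the 10 genes was 1629 to 1654 in control and 2091 to 2138 after TGF-β1, of which TPM1 gave 30.4% to 32.2% and 33.9% to 35.5%.

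Other smooth muscle genes went both ways. Of 22 other smooth muscle contractile genes, 14 were tested, of which 6 rose, 5 fell and 3 did not pass the test, with a median log2 fold change of -0.01. The 6 became 3 without control replicate 1 or without control replicate 3, and 2 with total counts only. Among the genes that rose at a mean of at least 5 CPM were PDLIM7, a cytoskeletal scaffold (0.53 ± 0.07, edgeR adjusted p = 1.4e-04), and SMTN, which encodes smoothelin (0.51 ± 0.07, edgeR adjusted p = 1.2e-04), both as log2 fold change ± SE. CSRP2 had the next rise above this limit, at 0.23 ± 0.07 (edgeR adjusted p = 0.023), a call lost without control replicate 1 or control replicate 3 and with total counts only. Below the limit, PDLIM3 went from 30 to 61 reads (0.99 ± 0.33, edgeR adjusted p = 0.032), and its call held in 9 of 16 alternative analyses. Among the genes that fell were LPP, a focal adhesion protein, at -0.61 ± 0.14 and the actin-binding NEXN at -0.47 ± 0.07 (edgeR adjusted p = 0.014 and 2.7e-04). Some genes of this list that mark muscle were near 0 and others were not. MYH11, the smooth muscle myosin heavy chain, had no read on its primary chromosome. Its name has 2 entries, as for ACTN4, so its value is uncertain. DES, KCNMB1, CASQ2, PLN and ITGA8 had between 1 and 8 reads in all 6 libraries together. FLNC, the muscle filamin, was at 435 and 444 CPM and JPH2, a junctophilin of muscle, at 28.5 and 27.5 CPM in control and after TGF-β1, and neither passed the test (edgeR adjusted p = 0.76 and 0.65). These 2 were named after their values were seen.

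The genes that drive myosin in non-muscle cells were called in part, where 22.2% of all entries tested were called higher and 22.1% lower. Of 28 genes of non-muscle myosin, its light chain phosphatase and other regulators, 26 were tested, and 10 rose, 2 fell and 14 did not pass the test, with a median log2 fold change of 0.11. PPP1R14C, an inhibitor of protein phosphatase 1 of the family that blocks myosin phosphatase, rose from 13.2 ± 0.954 to 62.1 ± 1.92 CPM (SD, n = 3), for a log2 fold change of 2.23 ± 0.07 (SE) with an edgeR adjusted p of 2.2e-09. Its relative PPP1R14B rose by 0.79 ± 0.08 on the log2 scale (edgeR adjusted p = 2e-05). LIMK1, the kinase that inactivates cofilin, rose by 0.78 ± 0.07 (edgeR adjusted p = 4e-06). CFL2, the muscle cofilin, fell by 0.29 (edgeR adjusted p = 5.9e-04). MYL6B had a log2 fold change of -0.18 ± 0.06 (edgeR adjusted p = 0.037), a call that held in 10 of 17 alternative analyses. Named after their values were seen, the non-muscle heavy chains MYH9 and MYH10 had log2 fold changes of 0.08 ± 0.06 and -0.04 ± 0.07 and did not pass the test (edgeR adjusted p = 0.31 and 0.65).

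Of SRF and its cofactors, 3 of 4 genes were tested and 2 rose. SRF rose from 72.4 ± 6.75 to 89.6 ± 0.255 CPM (SD, n = 3), for a log2 fold change of 0.31 ± 0.07 (SE) with an edgeR adjusted p of 0.0041. MRTFA, an actin-regulated coactivator of SRF, rose from 36.5 ± 2.11 to 53.5 ± 2.07 CPM, for a log2 fold change of 0.55 ± 0.06 with an edgeR adjusted p of 4.8e-05. MRTFB had a log2 fold change of -0.23 ± 0.10 and did not pass the test (edgeR adjusted p = 0.072), but was called lower in 6 of 17 alternative analyses, total counts only among them. MYOCD, the smooth muscle and heart cofactor, had 0 reads in all libraries.

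Other known targets of SRF and MRTF went both ways. Of 13 such genes, all tested, 5 rose, 4 fell and 4 did not pass the test, with a median log2 fold change of 0.20. Among those that did not pass, ZYX has 2 entries under its name, as for ACTN4, so its value is uncertain. Its primary entry had 406, 215 and 870 reads in the TGF-β1 libraries (1.87 ± 0.71, edgeR adjusted p = 0.11). At a mean of at least 5 CPM, the largest rises called were those of JUNB at 3.08 ± 0.11, CCN2 at 1.56 ± 0.07 and FHL2 at 0.38 ± 0.06, as log2 fold change ± SE (edgeR adjusted p = 4.2e-08, 2.7e-08 and 5e-04). At the same mean level, the largest falls were those of CCN1 at -0.78 ± 0.06, FHL1 at -0.39 ± 0.06 and ANKRD1 at -0.29 ± 0.06 (edgeR adjusted p = 1.8e-06, 4.1e-04 and 0.0040). The chosen genes are not targets of SRF alone.

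Markers of other contractile or stromal cells were read beside these values. In bulk RNA, fewer cells of a type and less RNA per cell cannot be told apart. Of 14 pericyte and fibroblast markers, 10 were tested, of which 2 rose, 5 fell and 3 did not pass the test, and their summed level went from a range of 240 to 251 TPM in control to 163 to 172 TPM after TGF-β1. Among them MCAM, ABCC9 and RGS5 had log2 fold changes of -0.58 ± 0.05, -1.15 ± 0.11 and -0.35 ± 0.12 (edgeR adjusted p = 8.1e-06, 1.3e-05 and 0.034), the call of RGS5 holding in 8 of 17 alternative analyses. The 2 that rose were PDGFRB, from 39 to 413 reads, and COL3A1, from 14 to 100 reads, both named after their values were seen. The fibroblast markers PDGFRA, FAP and POSTN had 4 to 6 reads in all 6 libraries together and DCN had 21. LUM, another fibroblast marker, went from 4354 to 3624 reads and THY1 from 63 to 19, and both fell (edgeR adjusted p = 0.0066 and 0.0016). MCAM at 146 and 89.6 TPM and LUM at 77.0 and 58.5 TPM made up most of the summed level. The part of these markers in the changes of the contractile genes was not tested.

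Of 20 proximal tubule and epithelial markers, 13 were tested, and 6 rose, 6 fell and 1 did not pass the test, with a median log2 fold change of -0.58. Their summed level, in which abundant genes weigh most, went from a range of 1893 to 1951 TPM in control to 2200 to 2388 TPM after TGF-β1. At a mean of at least 5 CPM, the largest rises were those of KRT7 at 2.35 ± 0.07 and KRT8 at 0.65 ± 0.07, as log2 fold change ± SE (edgeR adjusted p = 9.9e-10 and 1.7e-05), and of CDH6, from 199 ± 17.5 to 560.1 ± 3.64 CPM (SD, n = 3, edgeR adjusted p = 2.4e-08). At the same limit, the largest falls were those of KRT19 at -1.34 ± 0.07, EPCAM at -1.25 ± 0.10 and PAX8 at -0.73 ± 0.07 (edgeR adjusted p = 7.6e-08, 1.7e-06 and 8.1e-06). Below the limit, AQP1 rose by 2.10 ± 0.39 and CDH16 fell by 1.27 on the log2 scale (edgeR adjusted p = 0.0015 and 5.3e-04). Of 6 endothelial and leukocyte markers, the 2 tested were lower after TGF-β1, CD68 by 0.44 on the log2 scale (edgeR adjusted p = 0.012) and CDH5, named after its values were seen, from 62 reads to 0. Their summed level was 184 to 199 TPM in control and 111 to 147 TPM after TGF-β1, nearly all of it from CD68, at 189 and 127 TPM. The call of CD68 was lost without TGF-β1 replicate 2.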

How the data were processed

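Poly(A) RNA of 3 control and 3 TGF-β1 samples was isolated with oligo(dT), copied with random hexamer primers and sequenced. Reads of low quality and adapters were removed by the authors. The processing notes of the submitters name hg38, CASAVA, featureCounts 2.0.1 and DESeq2 1.16.1. The aligner and the strand setting are not given in the sources used here. The deposited tables hold, for 42095 entries, raw counts and the TPM and FPKM values that the authors computed from them. FPKM was not used here. TPM recomputed from counts and exon bases differed by at most 3.57e-06. In every library 7 records broken over lines were rejoined, and 598 entries without a name (0.396% to 0.464% of counts) were left out.

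The 10 genes and all lists were chosen with earlier results of these data known. Named are the 10 genes, their paralogs, SRF and its cofactors, and from each other list up to 3 called genes per direction with the largest change at a mean of at least 5 CPM. Some genes of the lists are not reported here. Counts were filtered with filterByExpr (minimum count 10), scaled by TMM and tested across 14860 entries with edgeR 4.0.16. The SE of a log2 fold change is its size over the square root of F. Family shares and ratios used TPM. The test was also run on counts simulated from the levels and dispersions of these libraries, and the outcome is not reported here. Alternatives were DESeq2 1.42.0, limma-voom (limma 3.58.1), RLE scaling, total counts only, no filter beyond a count, a filter at a mean of 50 counts, glmTreat against 2-fold, prior counts of 0.5 and 2, entries of a name summed, a replicate block, and the omission of each library. Other software was R 4.3.3, Python 3.11.15, pandas 2.3.3, scipy 1.17.1 and matplotlib 3.10.9. Counts per library of 21.9 to 26.9 M set the precision of low genes.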

Additional observations from a re-analysis of the deposited data

How the results depend on the processing

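Against a 2-fold limit (glmTreat), 1 contractile gene was called higher, TAGLN, in place of 6, and MYLK stayed lower. Under the other 16 alternatives, the 7 tested genes kept their calls, with log2 fold changes over all 17 of 2.55 to 2.68 for TAGLN, 0.49 to 0.68 for CNN1, 0.53 to 0.66 for TPM1, 0.65 to 0.81 for MYL9, 0.19 to 0.32 for ACTN1, 0.36 to 0.49 for CALD1 and -1.53 to -1.35 for MYLK. As shares of raw counts, not divided by gene length, the shift of the family share was 3.18 percentage points for TAGLN, 1.26 for CNN1, 7.21 for MYL9 and -3.58 for MYLK, in place of 1.37, 2.10, 5.01 and -12.6. The counts of calls in the other gene lists moved by over 1.5 times in 16 of 256 cases without the 2-fold limit and in 13 of 16 with it.

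The labels do not say whether libraries of the same replicate number are paired. The deviations of same-numbered libraries correlated at 0.111, -0.012 and 0.076, and those of differently numbered ones at -0.149 to 0.088. With 3 libraries a group these values cannot settle whether the design was paired. With the replicate block, 6 contractile genes were higher and 1 lower, and the calls of the whole table were 3396 higher and 3394 lower.

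With 1 to 7 reads a library, a fall of 2-fold was not detectable for ACTA2, TPM2 or LMOD1. Their read ratios with each library left out were 0.566 to 1.001, 0.560 to 1.20 and 0.363 to 0.698. Gene counts do not separate isoforms.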
